A study of Mus musculus with 12 samples.

Results

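The genes that write, copy, recognise and erase DNA methylation were followed in 3T3-L1 cells with and without a knockdown of Fto, which encodes an RNA demethylase. They are the 3 DNA methyltransferases Dnmt1, Dnmt3a and Dnmt3b, the paralogs Uhrf1 and Uhrf2, the 3 dioxygenases Tet1, Tet2 and Tet3, and the remodeler Hells. These 9 genes were taken by symbol from a table of 55487 genes, each symbol matched 1 row, and all 9 passed the filter on low values. 3T3-L1 cells are mouse fibroblasts kept in culture, and hormones induce them to become adipocytes. A line with a control hairpin (shScram) and a line with a hairpin against Fto (shFto) were compared at 3 stages, as preadipocytes (Pre), at mitotic clonal expansion (MCE) and after differentiation (Diff), with 2 libraries in each of 6 groups. Hairpins came by lentivirus and infected cells were selected with puromycin in both lines. MCE and Diff cells had received the induction mixture MDI (IBMX, dexamethasone and insulin), and Pre cells had not. The labels do not say which hairpin against Fto was used. Cells treated with rhein and m6A immunoprecipitates were left out.

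DNA methylation sits on cytosines of CpG pairs and has to be restored on the new strand at each round of replication. Dnmt1 does this copying, and Uhrf1 brings it to newly replicated DNA by recognising CpG pairs that are methylated on the old strand alone. Dnmt3a and Dnmt3b set methylation at new sites, Hells opens packed chromatin so that repeats can be methylated, and the Tet enzymes oxidise methylcytosine, which starts its removal.

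The levels are in TPM, the share of a gene's transcripts among all transcripts after correction for length, so levels of different genes can be set side by side. TPM keeps no sequencing depth, and the depth behind each value is unknown. Changes were tested by limma on log2(TPM + 1), which shrinks the changes of genes at low levels, and a gene was called at an adjusted p under 0.05. Fold changes given as such are ratios of mean TPM. Nothing in the labels says that the 2 libraries of a group came from separate cultures. P-values thus measure the spread between libraries of a group, pooled over all 6 groups, and that spread may be technical. In bulk RNA, fewer cells with a transcript and less of it per cell cannot be told apart. Fto itself had log2 changes of -3.11, -3.02 and -3.15 at Pre, MCE and Diff. Replicate 1 of shScram at Diff carries a treatment entry that names the knockdown, and it was grouped by its title. Its Fto level of 73.5 TPM matched that title, beside 70.8 TPM in replicate 2 and 7.47 and 7.05 TPM in shFto Diff. The shScram Pre libraries stood apart from each other. Their correlation across genes was 0.939, against 0.990 to 0.993 in the other groups, and their difference followed transcript GC content (rank correlation -0.701 across 15928 genes). Mitochondrial transcripts took 14.5% and 7.34% of them, and 4.58% to 9.16% of the other libraries. All results that use shScram Pre rest on this pair. Because the spread is pooled, this pair also enters the standard error of comparisons that do not use shScram Pre. In fits on the libraries of a comparison alone, 0 of the 9 genes were called in any comparison that uses shScram Pre. Of all 15968 genes tested, those fits called 0 between the lines at Pre and 504 for the shScram step from Pre to MCE. For the difference of that step between the lines they called 239. The fibroblast genes Col1a1, Col1a2, Col3a1, Pdgfra, Pdgfrb, Thy1, Dlk1 and Vim summed to 6933 TPM or more in every library. Markers of macrophage, endothelial, epithelial and muscle cells summed to 4.10 to 16.7 TPM over 9 genes.

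The stretches before the annotated starts of Dnmt1, Uhrf1, Hells and Uhrf2 are shown because the first 3 genes hold an E2F word there and the last, the paralog of Uhrf1, does not. E2F factors drive genes of S phase. The words searched, on both strands, were TTTCCCGC, TTTGGCGC, TTTCGCGC and TTTGCCGC, which do not overlap in the windows shown. The windows were 250 bases before to 50 bases after each start in RefSeq on GRCm38.p6. Only the 250 bases before the start are printed, 5′ to 3′ on the strand of the gene, with matches in capitals.

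Dnmt1 (minus strand, chr9:20952624-20952873): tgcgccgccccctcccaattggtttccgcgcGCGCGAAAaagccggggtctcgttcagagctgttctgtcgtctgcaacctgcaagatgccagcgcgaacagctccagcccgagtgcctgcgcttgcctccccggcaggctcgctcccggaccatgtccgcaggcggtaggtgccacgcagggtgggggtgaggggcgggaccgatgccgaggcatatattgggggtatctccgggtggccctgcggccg

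Uhrf1 (plus strand, chr17:56304063-56304312): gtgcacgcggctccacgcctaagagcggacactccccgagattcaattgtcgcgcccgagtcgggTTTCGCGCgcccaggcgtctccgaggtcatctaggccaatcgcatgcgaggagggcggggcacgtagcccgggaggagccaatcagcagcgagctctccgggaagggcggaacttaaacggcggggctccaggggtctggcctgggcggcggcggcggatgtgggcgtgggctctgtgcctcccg

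Hells (plus strand, chr19:38930740-38930989): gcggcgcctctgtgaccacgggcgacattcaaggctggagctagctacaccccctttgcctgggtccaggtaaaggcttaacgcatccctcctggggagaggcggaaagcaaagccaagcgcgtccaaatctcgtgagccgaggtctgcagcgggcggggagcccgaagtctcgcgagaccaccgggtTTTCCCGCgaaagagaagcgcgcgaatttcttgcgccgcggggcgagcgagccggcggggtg

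Uhrf2 (plus strand, chr19:30030263-30030512): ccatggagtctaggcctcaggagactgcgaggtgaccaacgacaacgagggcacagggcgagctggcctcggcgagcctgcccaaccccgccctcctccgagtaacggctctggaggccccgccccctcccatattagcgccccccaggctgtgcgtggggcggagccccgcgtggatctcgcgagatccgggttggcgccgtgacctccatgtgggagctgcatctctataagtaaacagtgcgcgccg

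The Dnmt1 window held TTTCGCGC on the opposite strand at position -219 and TTTGGCGC at position 33 after the start, past the printed stretch. Uhrf1 held TTTCGCGC at position -185 and Hells TTTCCCGC at position -62. Of 14 windows of the 9 genes, these 3 held a word, while the other Dnmt1 and Uhrf1 windows and all windows of Dnmt3a, Dnmt3b, Uhrf2, Tet1, Tet2 and Tet3 held none. Of all 32851 windows in the table, 744 (2.26%) held a word, and 390 of 8128 (4.80%) did among windows with a GC content of at least 60% and a CpG ratio, observed over expected, of at least 0.6. Each shown window is rich in CpG, with 33 CpG pairs for Dnmt1, 33 for Uhrf1, 34 for Hells and 28 for Uhrf2 over the full window, against a median of 7 over all windows. The matches describe these letters only, and binding was not measured.

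By group mean, Uhrf2 and Dnmt1 were the most abundant of the 9 transcripts in all 6 groups, and Dnmt3b and Tet1 the least. In replicate 1 of shScram Pre, Hells (63.7 TPM) stood above Uhrf2 (63.5 TPM) and Dnmt1 (50.1 TPM). Group means ran from 0.264 TPM (Tet1, shFto Pre) to 176.9 TPM (Uhrf2, shFto Diff). Below the leading pair the order depended on the stage. Uhrf1 held the third place at MCE in both lines, at 47.3 and 69.7 TPM, and Tet3 held it at Diff, at 25.3 and 23.3 TPM. Several neighbours in the order could not be separated because their libraries overlapped. These were Uhrf2 with Dnmt1 in shScram Pre, shFto Pre and shFto MCE, Dnmt1 with Hells, Hells with Uhrf1 and Tet3 with Tet2 in shScram Pre, Tet2 with Uhrf1 and Dnmt3a with Hells in shScram Diff, Dnmt3a with Hells in shFto Pre, Dnmt3a with Tet2 in shFto MCE, Uhrf1 with Tet2 in shFto Diff, and Tet1 with Dnmt3b in shScram MCE.

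**Figure D1:**
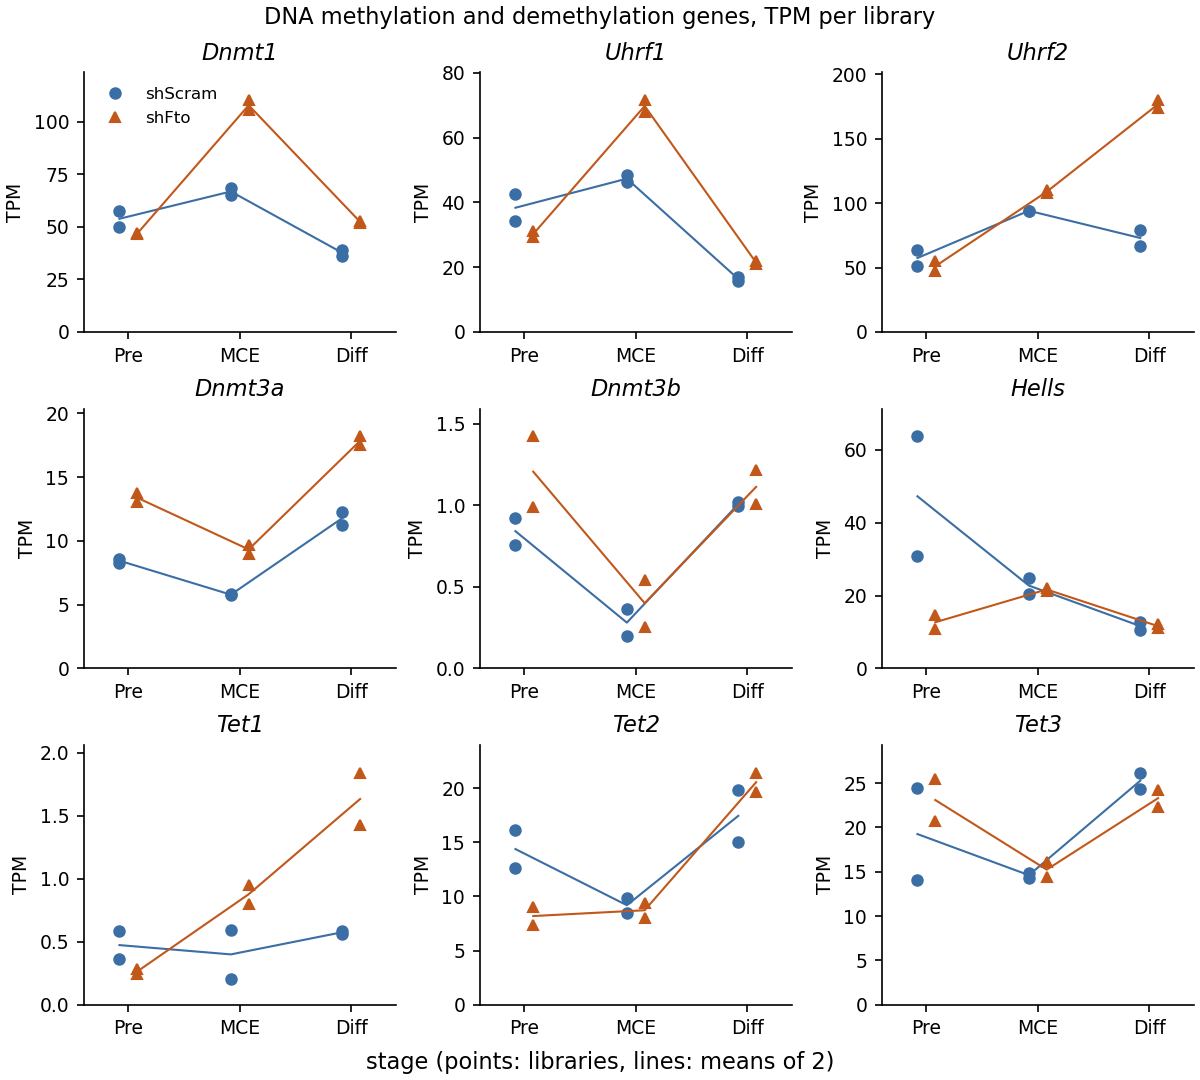
TPM of the 9 genes in each library (vertical axes, each from 0) at the 3 stages (horizontal axes). Circles are shScram, triangles shFto, and lines join the means of 2 libraries. Dnmt1 and Uhrf1 peaked at MCE, higher in shFto, Uhrf2 reached 173.7 and 180.1 TPM in shFto at Diff, and Hells had its 2 highest values in shScram Pre.

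Between the lines, 1 of the 9 genes was called higher in shFto and 2 lower at Pre, 3 higher and 0 lower at MCE, and 4 higher and 0 lower at Diff. The 4 at Diff include Tet1, which passed the filter only through the shFto Diff libraries. Over all 15968 genes tested, the shares called higher and lower were 15.9% and 12.3% at Pre, 10.5% and 7.26% at MCE, and 11.9% and 9.31% at Diff. Their median log2 change was -0.19, 0.21 and 0.37 at the successive stages, against 0.08, 0.05 and 0.03 over all genes tested. With the 10 libraries other than shScram Pre, 3 of the 9 were called at MCE and 5 at Diff, beside 41.9% and 46.5% of all 15649 genes tested in that fit. When 1 library was left out the counts for the 9 genes changed, and so did the number called over all genes tested.

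**Figure D2:**
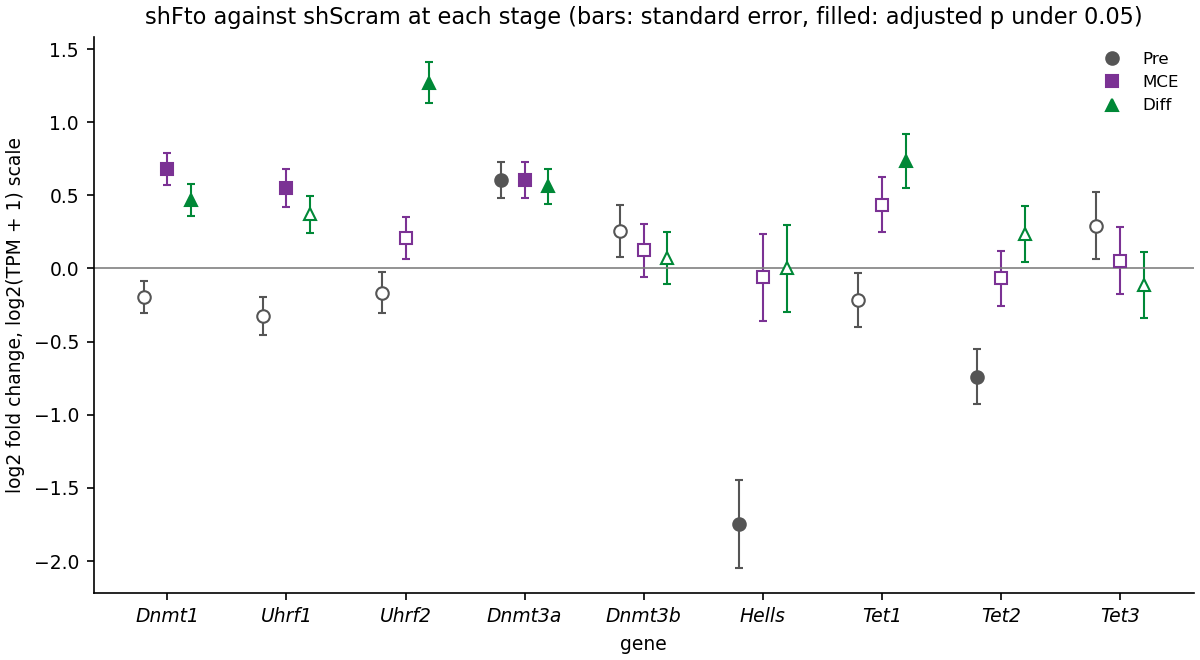
Log2 fold change of shFto against shScram on the log2(TPM + 1) scale (vertical axis) for the 9 genes at Pre, MCE and Diff. Bars are standard errors and filled symbols mark an adjusted p under 0.05. Dnmt3a sat between 0.56 and 0.61 at all stages, Uhrf2 stood at 1.27 at Diff, and Hells at -1.75 at Pre.

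Across the stages of the shScram line, 1 gene was called higher and 4 lower from Pre to MCE, and 4 higher and 2 lower from MCE to Diff. In shFto cells 4 were higher and 2 lower at each of these steps. The background shares called higher and lower were 12.2% and 26.9% for Pre to MCE and 20.0% and 5.22% for MCE to Diff in shScram, and 8.80% and 19.9%, then 20.2% and 6.48% in shFto. A scaling of the libraries by median ratios shifted the median of all genes by 0.17 and 0.19 for the MCE step and by -0.22 and -0.17 for the Diff step, in shScram and shFto, and TPM changes of that size between stages depend on the scaling. Between the lines it shifted the median by less than 0.1 at each stage.

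**Figure D3:**
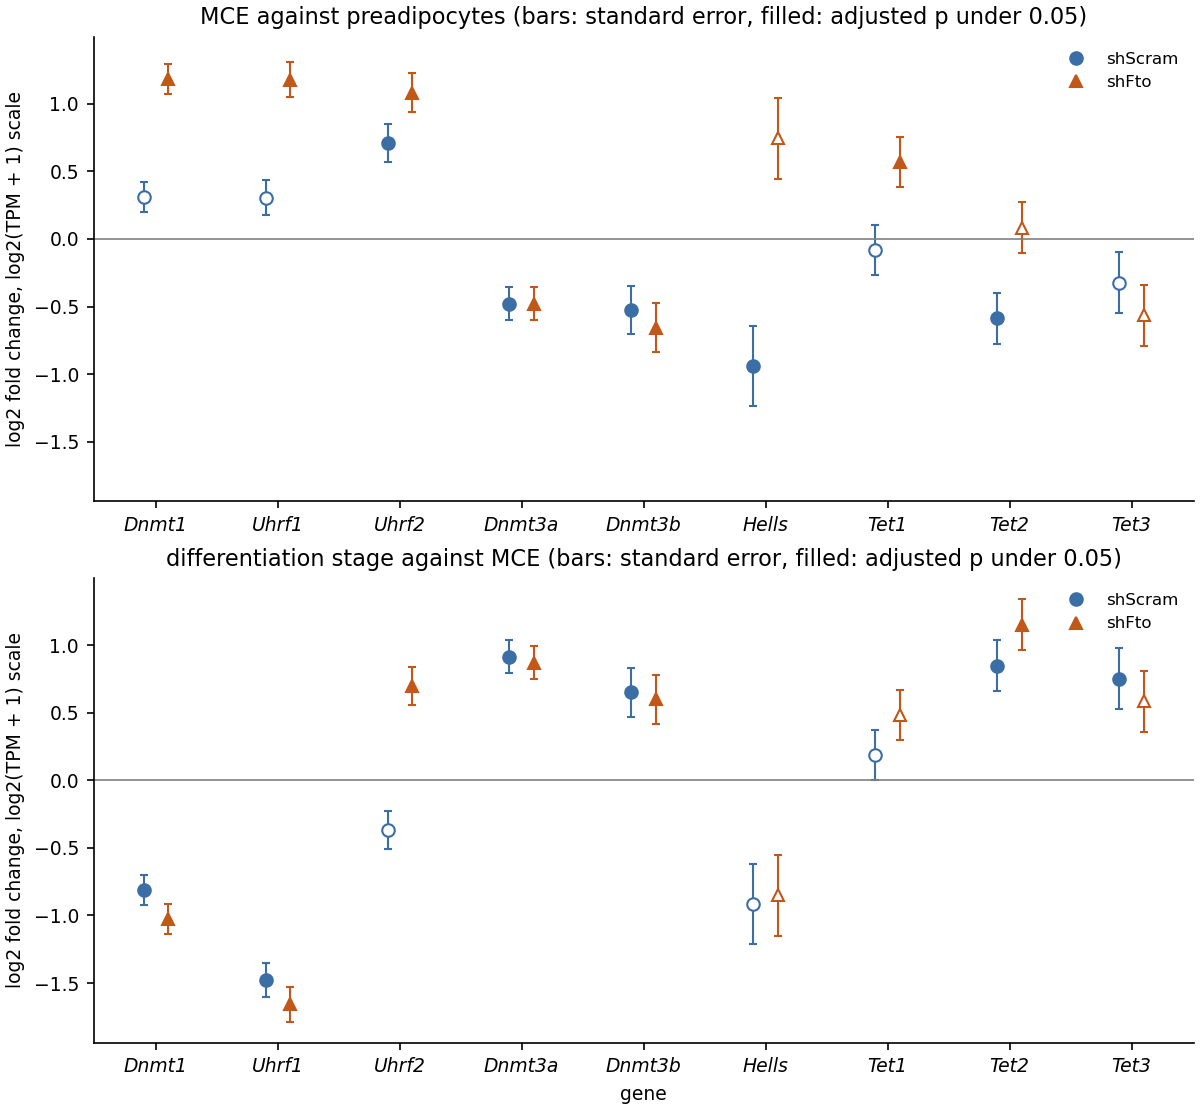
Log2 fold change from Pre to MCE (top) and from MCE to Diff (bottom) on the log2(TPM + 1) scale for the 9 genes. Circles are shScram and triangles shFto, bars are standard errors, and filled symbols mark an adjusted p under 0.05. At the MCE step Dnmt1 and Uhrf1 stood at 1.19 and 1.18 in shFto and at 0.31 and 0.30 in shScram, and at the Diff step Uhrf2 stood at 0.69 in shFto and -0.37 in shScram.

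Dnmt1, the maintenance methyltransferase, lies on chromosome 9 (20907209 to 20959888, minus strand, GRCm38; ENSMUSG00000004099). In shScram libraries its level was 50.1 and 57.6 TPM at Pre, 65.4 and 68.3 TPM at MCE, and 39.0 and 36.3 TPM at Diff. In shFto libraries it was 46.5 and 47.1 TPM at Pre, 110.3 and 105.4 TPM at MCE, and 51.8 and 53.0 TPM at Diff. The lines did not overlap at any stage, with shFto below shScram at Pre and above it at MCE and Diff. At MCE the mean was 1.61-fold that of shScram (log2 change 0.68, SE 0.11, adjusted p = 0.00326 by limma), a call kept without any 1 library. At Diff it was 1.39-fold (0.47, SE 0.11, adjusted p = 0.0168 by limma), and this call was lost without either library of either line at Diff, with log2 changes of 0.42 to 0.52. At Pre the log2 change was -0.19 (adjusted p = 0.198 by limma), and it was called at -0.29 without replicate 1 of shScram Pre and at -0.54 after GC correction.

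The rise of Dnmt1 from Pre to MCE was 2.30-fold in shFto (log2 change 1.19, SE 0.11, adjusted p = 8.69e-05 by limma). In shScram it was 1.24-fold (0.31, SE 0.11, adjusted p = 0.0524 by limma), and that step passed the test at 0.41 without replicate 2 of shScram Pre and also with another pseudocount, filter or scaling and after GC correction. The step was larger in shFto by 0.88 on the log2 scale (SE 0.16, adjusted p = 0.0167 by limma), where 2.52% of all genes tested had a larger and 2.59% a smaller step. Without 1 library the difference was 0.78 to 0.97, and the call was lost without any of the libraries of shScram MCE, shFto Pre or shFto MCE. Dnmt1 then fell from MCE to Diff by 0.81 in shScram and by 1.03 in shFto (adjusted p = 0.00128 and 0.00035 by limma), calls kept without any 1 library.

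Uhrf1, which guides Dnmt1 to newly copied DNA, lies on chromosome 17 (56303321 to 56323486, plus strand; ENSMUSG00000001228). Its shScram levels were 34.2 and 42.5 TPM at Pre, 46.2 and 48.5 TPM at MCE, and 16.9 and 15.8 TPM at Diff. The shFto levels were 29.4 and 31.0 TPM at Pre, 67.9 and 71.6 TPM at MCE, and 20.9 and 22.0 TPM at Diff. As for Dnmt1, shFto lay below shScram at Pre and above it later, without overlap. At MCE the level in shFto was 1.47-fold that in shScram (log2 change 0.55, SE 0.13, adjusted p = 0.0189 by limma). Without any of the 4 MCE libraries that call was lost, with log2 changes of 0.51 to 0.59. At Diff the log2 change was 0.37 (adjusted p = 0.0759 by limma), and it passed the test when either or both of the shScram Pre libraries were left out (adjusted p = 0.00335 by limma without both). At Pre it was -0.33 (adjusted p = 0.085 by limma) and was called at -0.48 without replicate 1 of shScram Pre, at -0.40 with median-ratio scaling and at -0.74 after GC correction.

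Uhrf1 rose 2.31-fold in shFto from Pre to MCE (log2 change 1.18, SE 0.13, adjusted p = 0.000212 by limma), and its change in shScram was 1.23-fold (0.30, SE 0.13, adjusted p = 0.0902 by limma; called at 0.46 without replicate 2 of shScram Pre and with median-ratio scaling). The difference of 0.88 (SE 0.18) had an adjusted p of 0.03 by limma. It was kept without either shScram Pre library and lost without any of the other 10 libraries, at 0.84 to 0.91 in those fits. At the Diff step the level fell to 0.346 and 0.307 of that at MCE in shScram and shFto (log2 changes -1.48 and -1.66, adjusted p = 0.000162 and 7.95e-05 by limma). Per library, Uhrf1 stood at 0.615 to 0.738 of the Dnmt1 level at Pre and MCE and at 0.403 to 0.435 of it at Diff.

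Genes of S phase, when Dnmt1 and Uhrf1 act, were taken as a list. Of 18 such genes, among them the Mcm2 to Mcm7 helicase subunits, 12 were higher and 0 lower in shFto at MCE (median log2 change 0.92), 6 and 0 at Diff (0.44), and 4 and 4 at Pre (0.34). Their summed level was 753 to 782 TPM in shScram and 1388 to 1412 TPM in shFto at MCE. Shares of all genes higher and lower were 10.5% and 7.26% at MCE, 11.9% and 9.31% at Diff, and 15.9% and 12.3% at Pre. For the Pre to MCE step, 7 of the 18 differed between the lines, all with a larger rise in shFto. Over all genes tested, 2.52% had a larger step in shFto. Mitosis genes, such as Mki67 and Cdk1, summed to 1153 to 1210 TPM in shScram and 972 to 1020 TPM in shFto at MCE, with 1 of 12 called higher and 2 lower. At Diff the order was the other way, with 11 of 12 mitosis genes higher and 0 lower in shFto (median 1.16) and sums of 229 to 240 against 465 to 504 TPM. The part of cycling cells in the Dnmt1 and Uhrf1 values was not tested.

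**Figure D4:**
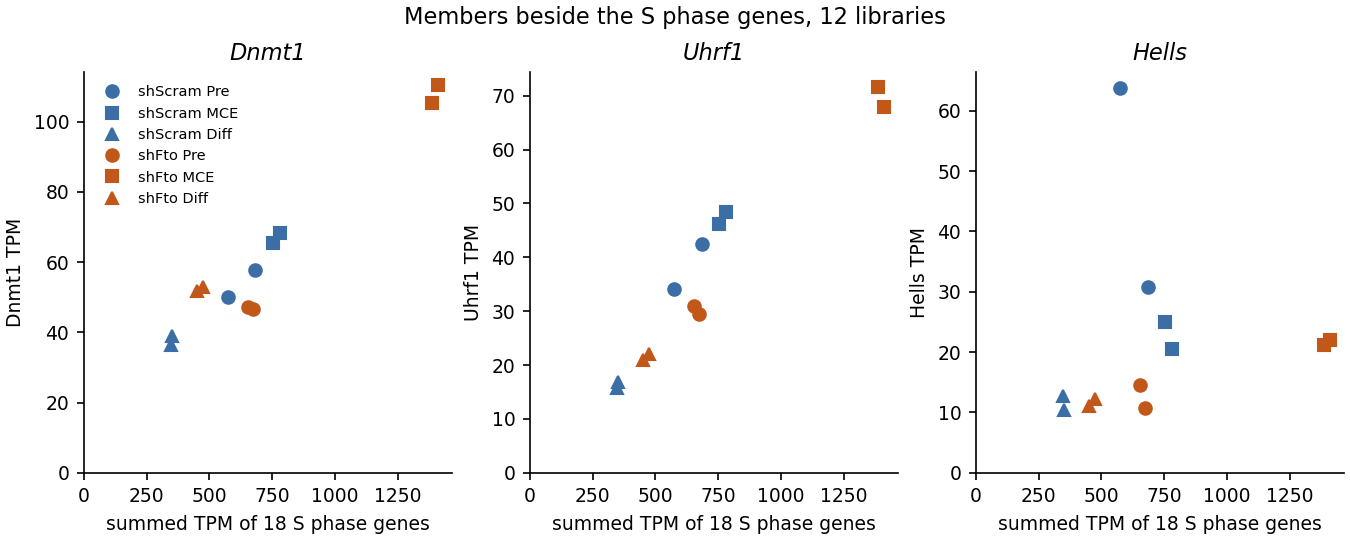
Level of Dnmt1, Uhrf1 and Hells (vertical axes, TPM from 0) against the summed TPM of 18 S phase genes (horizontal axes) in 12 libraries. Colours are lines (blue shScram, orange shFto) and symbols stages. Dnmt1 and Uhrf1 were highest in the 2 shFto MCE libraries, where the sum was 1388 and 1412 TPM, while Hells stood at 21.3 and 22.1 TPM there and at 63.7 and 30.8 TPM in shScram Pre.

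Uhrf2, which shares its domains with Uhrf1 and binds oxidised and methylated DNA but does not replace Uhrf1 in copying methylation, went another way. It lies on chromosome 19 (30030513 to 30093722, plus strand; ENSMUSG00000024817). Its shScram levels were 63.5 and 51.5 TPM at Pre, 94.0 and 94.3 TPM at MCE, and 66.9 and 79.1 TPM at Diff. In shFto it stood at 47.0 and 55.1 TPM at Pre, 110.2 and 107.6 TPM at MCE, and 173.7 and 180.1 TPM at Diff. The lines overlapped at Pre but not at MCE, and the Diff libraries of shFto were the highest of all 12. At Diff shFto held 2.42-fold the shScram level (log2 change 1.27, SE 0.14, adjusted p = 0.00036 by limma), and this was called in all 20 alternatives, with log2 changes of 1.15 to 1.39. The log2 change was 0.21 at MCE and -0.17 at Pre (adjusted p = 0.382 by limma for each). At MCE it was called in a fit on the MCE libraries alone (adjusted p = 0.0257 by limma). At Pre it was 0.16 and not called after GC correction, and -0.31 and called without replicate 2 of shScram Pre.

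Uhrf2 rose from Pre to MCE 1.64-fold in shScram and 2.13-fold in shFto (log2 changes 0.71 and 1.08, adjusted p = 0.00477 and 0.000567 by limma). From MCE to Diff it rose a further 1.62-fold in shFto (0.69, SE 0.14, adjusted p = 0.00722 by limma), while in shScram its change was 0.775-fold (-0.37, SE 0.14, adjusted p = 0.0888 by limma). The shFto step was lost at 0.48 with median-ratio scaling (adjusted p = 0.0505 by limma) and without replicate 2 of shFto MCE or shFto Diff, and the shScram step passed the test at -0.64 with median-ratio scaling, at -0.67 after GC correction, in a fit on the libraries of the comparison and without either shScram Pre library. The step differed between the lines by 1.06 (SE 0.20, adjusted p = 0.029 by limma), beside 1.47% of all genes with a larger and 1.01% with a smaller step in shFto. Without 1 library this difference was 0.94 to 1.18, and the call was lost without any of the 8 MCE and Diff libraries. The ratio of Uhrf2 to Uhrf1 per library was 1.21 to 2.04 at Pre and MCE in both lines, 3.95 and 5.01 in shScram Diff, and 8.32 and 8.19 in shFto Diff. Adipocyte markers, among them Adipoq, Fabp4 and Cd36, also differed between the lines, with 2 of 10 called higher and 0 lower in shFto at Pre, 1 higher and 6 lower at MCE (median log2 change -0.89), and 0 higher and 8 lower at Diff (-2.16). Their summed level was 415 to 421 TPM in shScram and 297 to 306 TPM in shFto at MCE. At Diff it was 1587 to 1601 TPM in shScram against 448 to 484 TPM in shFto. Shares of all genes called higher and lower were 15.9% and 12.3% at Pre, 10.5% and 7.26% at MCE, and 11.9% and 9.31% at Diff. The part of the adipocyte markers in the Uhrf2 value was not tested.

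Hells, a chromatin remodeler that methylation of repeats depends on, lies on chromosome 19 (38930915 to 38971051, plus strand; ENSMUSG00000025001). Its shScram levels were 63.7 and 30.8 TPM at Pre, 24.9 and 20.5 TPM at MCE, and 10.4 and 12.8 TPM at Diff. The shFto levels were 10.8 and 14.6 TPM at Pre, 22.1 and 21.3 TPM at MCE, and 11.0 and 12.2 TPM at Diff. The lines overlapped at MCE and Diff and were apart at Pre, where the shScram pair itself differed more than for any other of the 9 genes. At Pre the shFto level was 0.268 of the shScram level (log2 change -1.75, SE 0.30, adjusted p = 0.00493 by limma). It was -1.23 without replicate 1 and -2.26 without replicate 2 of shScram Pre, -1.50 after GC correction, all called, and not called in a fit on the 4 Pre libraries alone (adjusted p = 0.224 by limma). At MCE and Diff the log2 changes were -0.06 and 0.0027 (adjusted p = 0.93 and 0.996 by limma), and their sign changed when a library was left out.

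In shScram Hells fell from Pre to MCE (log2 change -0.94, SE 0.30, adjusted p = 0.0341 by limma), a call lost at -0.43 without replicate 1 of shScram Pre, at -0.72 with median-ratio scaling, at -0.49 after GC correction, with no filter and without any library of shScram MCE, shFto MCE or shFto Diff. In shFto the change over that step was 0.74 (adjusted p = 0.0962 by limma), and it passed the test with the 10 libraries other than shScram Pre (adjusted p = 0.00247 by limma). The difference of 1.69 between the lines had an adjusted p of 0.0573 by limma, and it passed the test at 1.17 without replicate 1, at 2.20 without replicate 2 of shScram Pre and at 1.37 after GC correction. From MCE to Diff the log2 change was -0.91 in shScram and -0.85 in shFto (adjusted p = 0.0532 and 0.0648 by limma). With those 10 libraries this step was called in both lines (adjusted p = 0.000864 and 0.0012 by limma).

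Dnmt3a, a de novo methyltransferase, was higher in shFto at all 3 stages. It lies on chromosome 12 (3806007 to 3914443, plus strand; ENSMUSG00000020661), where exons of the antisense gene Dnmt3aos overlap it. Dnmt3aos had a mean of 0.062 TPM, and the use of strand in counting is not given in the sources used here. The shScram levels of Dnmt3a were 8.61 and 8.27 TPM at Pre, 5.72 and 5.84 TPM at MCE, and 12.3 and 11.3 TPM at Diff. In shFto they were 13.0 and 13.7 TPM at Pre, 9.68 and 8.98 TPM at MCE, and 18.2 and 17.5 TPM at Diff. Every shFto library lay above both shScram libraries of its stage. The fold changes were 1.59, 1.61 and 1.51 (log2 changes 0.61, 0.61 and 0.56, adjusted p = 0.00976, 0.00941 and 0.0118 by limma). After GC correction the log2 changes were 0.15, 0.45 and 0.36 and no longer passed the test (adjusted p = 0.575, 0.118 and 0.185 by limma). The calls were also lost without either shFto library at Pre, without any MCE library at MCE, and without replicate 2 of shScram or either shFto library at Diff, with log2 changes of 0.50 to 0.66.

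Over the stages both lines went the same way. From Pre to MCE Dnmt3a fell by 0.48 in each line (adjusted p = 0.0145 in shScram and 0.0178 in shFto by limma), opposite to Dnmt1. With median-ratio scaling these falls were -0.28 and -0.26 and not called, the shFto fall was also lost after GC correction, and leaving out either MCE library of a line, or in shFto either Pre library, also ended the call at -0.53 to -0.43. From MCE to Diff it rose 2.04-fold in shScram and 1.91-fold in shFto (log2 changes 0.91 and 0.87, adjusted p = 0.00121 and 0.00128 by limma), calls kept without any 1 library. The Dnmt1 to Dnmt3a ratio per library was 5.82 and 6.96 in shScram Pre, 3.57 and 3.44 in shFto Pre, 11.4 to 11.7 at MCE in both lines, and 2.85 to 3.23 at Diff.

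Dnmt3b, the other de novo enzyme, was near the detection filter. It lies on chromosome 2 (153649450 to 153687730, plus strand; ENSMUSG00000027478). The shScram levels were 0.758 and 0.923 TPM at Pre, 0.365 and 0.195 TPM at MCE, and 1.02 and 0.995 TPM at Diff. The shFto levels were 0.989 and 1.42 TPM at Pre, 0.256 and 0.542 TPM at MCE, and 1.01 and 1.22 TPM at Diff. The lines overlapped at MCE and Diff, and in both the MCE libraries were the lowest. Between the lines the log2 changes were 0.26, 0.12 and 0.07 (adjusted p = 0.293, 0.716 and 0.826 by limma), and after GC correction all 3 were below 0. From Pre to MCE the log2 change was -0.53 in shScram and -0.66 in shFto, and from MCE to Diff 0.65 and 0.60 (adjusted p = 0.0456, 0.0242, 0.0292 and 0.0374 by limma). The shScram fall was lost without any 1 of the 12 libraries, the shFto fall and both rises were lost after GC correction, and the shFto fall was lost without replicate 2 of shFto Pre or replicate 1 of shFto MCE. The rises were lost without any MCE or Diff library of the same line, in shFto also of the other line. With median-ratio scaling the shScram fall and the shFto rise were lost, and the shScram fall was also lost with no filter. Without 1 library the falls were -0.80 to -0.43 and the rises 0.45 to 0.75.

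Among the Tet genes, Tet2 and Tet3 carried the expression and Tet1 was close to the floor. Tet1 lies on chromosome 10 (62804570 to 62908996, minus strand; ENSMUSG00000047146). Its shScram levels were 0.586 and 0.360 TPM at Pre, 0.207 and 0.592 TPM at MCE, and 0.589 and 0.562 TPM at Diff. In shFto it was 0.242 and 0.285 TPM at Pre, 0.803 and 0.952 TPM at MCE, and 1.84 and 1.43 TPM at Diff. The shFto libraries lay below shScram at Pre and above at MCE and Diff, without overlap. At Diff the level was 2.84-fold that of shScram (log2 change 0.74, SE 0.19) and was called. Tet1 reached 1 TPM in the shFto Diff libraries alone. It was thus tested only through the group where it is high, and the call is no independent support. The call was lost with a pseudocount of 0.1 (1.35, adjusted p = 0.077 by limma) and without either shScram Diff library (0.72 to 0.75). At Pre and MCE the log2 changes were -0.22 and 0.44 (adjusted p = 0.383 and 0.15 by limma). In shFto Tet1 rose from Pre to MCE (0.57, adjusted p = 0.0479 by limma), and that call was lost with no filter on low values. The same held without any library of shFto Pre, shFto MCE or shScram Diff, with values of 0.51 to 0.63. Its other steps were not called, at -0.08 and then 0.18 in shScram and 0.49 from MCE to Diff in shFto (adjusted p = 0.744, 0.507 and 0.0856 by limma). Without either library of shFto Diff, Tet1 did not pass the filter on low values.

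Tet2 lies on chromosome 3 (133463679 to 133545139, minus strand; ENSMUSG00000040943), and exons of the antisense gene Gm42567, at a mean of 0.098 TPM, overlap it. Its shScram levels were 16.1 and 12.7 TPM at Pre, 9.87 and 8.50 TPM at MCE, and 15.0 and 19.9 TPM at Diff. The shFto levels were 7.33 and 9.04 TPM at Pre, 9.39 and 8.05 TPM at MCE, and 19.7 and 21.4 TPM at Diff. The lines were apart at Pre alone. There shFto held 0.570 of the shScram level (log2 change -0.74, SE 0.19, adjusted p = 0.0228 by limma), -0.54 and called after GC correction, and not called without either shFto Pre library or in a fit on the 4 Pre libraries (adjusted p = 0.288 by limma). Values without 1 library were -0.90 to -0.58. At MCE and Diff the log2 changes were -0.07 and 0.24 (adjusted p = 0.864 and 0.43 by limma).

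Tet2 rose from MCE to Diff 1.90-fold in shScram and 2.36-fold in shFto (log2 changes 0.85 and 1.15, adjusted p = 0.0124 and 0.00271 by limma). The shScram rise was lost without replicate 2 of shScram MCE or shScram Diff (0.66 to 1.04 without 1 library) and was 0.60 with median-ratio scaling (adjusted p = 0.0594 by limma). From Pre to MCE Tet2 fell in shScram (-0.59, adjusted p = 0.0362 by limma), a call lost at -0.19 after GC correction, with median-ratio scaling, with no filter and without 7 of the 12 libraries, namely replicate 1 of shScram Pre and all libraries of shScram MCE, shFto MCE and shFto Diff (-0.68 to -0.43 in these fits). In shFto it changed by 0.08 over that step (adjusted p = 0.794 by limma).

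Tet3 lies on chromosome 6 (83362373 to 83459084, minus strand; ENSMUSG00000034832). Its shScram levels were 14.0 and 24.5 TPM at Pre, 14.9 and 14.3 TPM at MCE, and 26.2 and 24.4 TPM at Diff. The shFto levels were 20.7 and 25.5 TPM at Pre, 16.1 and 14.4 TPM at MCE, and 22.3 and 24.3 TPM at Diff. The lines overlapped at Pre and MCE, and the shScram Pre libraries differed by as much as the stages did. No comparison between the lines was called (log2 changes 0.29, 0.05 and -0.11, adjusted p = 0.333, 0.913 and 0.78 by limma), but at Pre the value was 0.68 and called without replicate 2 of shScram Pre and -0.36 and called after GC correction, which also gave a call of -0.35 at Diff. From MCE to Diff Tet3 rose 1.73-fold in shScram (0.75, SE 0.23, adjusted p = 0.0401 by limma), a call lost without any library other than those of shScram Pre, with values of 0.70 to 0.80, and lost at 0.49 with median-ratio scaling. In shFto the change was 1.53-fold (0.58, adjusted p = 0.089 by limma), and it passed the test with the 10 libraries other than shScram Pre (adjusted p = 0.00171 by limma). From Pre to MCE the changes were -0.33 in shScram and -0.56 in shFto (adjusted p = 0.278 and 0.0961 by limma). Without replicate 1 of shScram Pre the shScram change was -0.71 and called, and without replicate 2 it was 0.056.

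Genes that work with the methyltransferases in copying and guarding methylation were taken as a list. Of 16, 14 were tested, and in shFto 0 were higher and 5 lower at Pre, 3 and 0 at MCE, and 2 and 2 at Diff. Over all genes tested the shares were 15.9% and 12.3%, 10.5% and 7.26%, and 11.9% and 9.31%. The genes called at MCE were Lig1 (log2 change 0.99), the ligase that joins new DNA fragments, Pcna (0.91), the sliding clamp of replication, and Cdca7 (0.64), which partners Hells. Lig1 stood at 34.4 and 35.2 TPM in shScram MCE and at 74.0 and 66.4 TPM in shFto MCE, and Pcna at 180.4 and 160.0 TPM against 313.5 and 328.5 TPM. At Pre the lowest were Trdmt1 (-0.83), an RNA methyltransferase of the Dnmt family, and Usp7 (-0.76), a ubiquitin protease that binds Dnmt1 and Uhrf1. Like Hells, Usp7 differed within shScram Pre, at 163.4 and 90.4 TPM. At Diff Zfp57 (0.90), which guards methylation at imprinted genes, and Lig1 (0.86) were higher, and Setdb1 (-0.83), a histone methyltransferase that was also lower at Pre (-0.59), and Trdmt1 (-0.53) lower.

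Of 10 proteins that read methylated CpG, 2 were higher and 1 lower at Pre, 3 and 0 at MCE, and 2 and 1 at Diff. Over all genes tested these shares were 15.9% and 12.3%, 10.5% and 7.26%, and 11.9% and 9.31%. Zbtb4, a zinc finger repressor, was higher in shFto at each stage (log2 changes 1.80, 1.51 and 1.93), from 1.38 to 3.25 TPM in shScram libraries to 7.60 to 16.2 TPM in shFto libraries. Wt1, a zinc finger factor that binds oxidised and methylated sites, was higher at MCE (1.29) and Diff (2.66), where it stood at 5.94 and 5.01 TPM against 0.0424 TPM and a value listed at 0 in shScram. Wt1 reached 1 TPM only in shFto libraries of these stages, so it passed the filter only through the groups where it is high. Klf4 was higher at Pre (1.16), and Mbd4 (-0.86 at Pre) and Mbd1 (-0.74 at Diff) were lower. The shScram Pre libraries differed for Klf4 (20.0 and 50.3 TPM) and Mbd4 (18.7 and 11.8 TPM).

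Base excision and TET partner genes numbered 15, of which 14 were tested. In shFto 4 were higher and 1 lower at Pre, 2 and 2 at MCE, and 4 and 0 at Diff. The shares over all genes tested were 15.9% and 12.3%, 10.5% and 7.26%, and 11.9% and 9.31%. Gadd45a, a stress gene linked to demethylation, was higher at Pre (log2 change 1.88, from 73.5 and 82.4 TPM to 284.7 and 292.3 TPM) and at Diff (1.16). Gadd45b was higher at MCE (1.52) and Diff (2.02), and Gadd45g at Pre (1.49). Cxxc5 was higher at all 3 stages (1.30, 1.32 and 0.98). Apex1, the endonuclease that cuts at abasic sites, was lower at Pre and MCE (-0.92 at each), and Cxxc4 was lower at MCE (-0.69). The shScram Pre libraries differed for Gadd45g (9.16 and 27.2 TPM), Cxxc5 (16.9 and 32.1 TPM) and Apex1 (62.5 and 116.8 TPM).

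Of 16 genes that supply the methyl donor and the Tet cofactor, 2 were higher and 3 lower at Pre, 0 and 3 at MCE, and 0 and 2 at Diff. All genes tested gave shares of 15.9% and 12.3%, 10.5% and 7.26%, and 11.9% and 9.31%. Mat2a, which makes S-adenosylmethionine, was lower in shFto at all 3 stages (log2 changes -0.73, -0.77 and -0.43). Its levels were 207.7 to 342.8 TPM over the shScram libraries and 126.0 to 206.6 TPM over the shFto libraries. Nnmt (-1.46), which uses up methyl groups, was lower at MCE, and Mthfd2 (-1.25), of mitochondrial folate metabolism, at Diff. At Pre Ahcy (1.15) and D2hgdh (0.78) were higher, and the shScram Pre libraries differed for both (34.2 and 88.9 TPM, and 3.17 and 5.73 TPM).

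Germline genes that promoter methylation keeps silent in body cells were near or at 0. Of 15 listed, 7 to 11 were at 0 in a library, their sum was 2.48 to 9.52 TPM, and 2 passed the filter. Dazl was the only one of these called between the lines, at Pre (log2 change 1.46). There shScram libraries held 0.562 and 0.327 TPM and shFto libraries 2.91 and 3.00 TPM. Dazl reached 1 TPM in these shFto Pre libraries alone. It was thus tested only through the group where it is high, and the call is no independent support. At MCE and Diff 0 were called in either direction. DNA methylation itself was not measured in these libraries.

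The genes whose pattern over the 12 libraries was closest to each of the 9 were found by Pearson's r on log2(TPM + 1) among 10800 genes with a mean of at least 5 TPM. These correlations share the stages, the lines and the libraries, and they are given as a description. Closest to Dnmt1 were Pclaf (0.975), Lig1 (0.969) and Wdhd1 (0.969), all known from DNA replication. Uhrf1 had Rbmxl1 (0.986), Rad51ap1 (0.980) and Hspa14 (0.977), and Uhrf2 had Serpine2 (0.987), Serpina3n (0.971) and Fam117b (0.964). For Hells they were Hnrnpk (0.972), Hprt (0.965) and Eif2s3x (0.964). Dnmt3a was closest to Entpd4b (0.972), Elobl (0.970) and Entpd4 (0.967), of which Entpd4 and Entpd4b are close copies whose reads may be shared. Dnmt3b had Crebl2 (0.976), Exd2 (0.966) and Pcgf1 (0.953). Tet1 was followed by Lpgat1 (0.937), Npepps (0.925) and Pros1 (0.914), Tet2 by Tbl1xr1 (0.977), Wsb1 (0.973) and Arid5b (0.973), and Tet3 by Rrnad1 (0.971), Zfp651 (0.964) and Tgfbr3l (0.964). Dnmt1 and Uhrf1 correlated with each other at 0.912, and Hells with Dnmt1 at 0.346 over 12 libraries and 0.794 over the 10 without shScram Pre.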

How the data were processed

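Expression was taken from the 12 RNA-seq libraries of shScram and shFto cells, grouped by their titles. Per the labels, fragmented RNA of 40 to 60 nt was selected on a gel before library construction. The authors used Trim Galore 0.6.5 for trimming and HISAT2 2.1.0 for alignment (GRCm38, Ensembl release 102), and TPM is the deposited unit, estimated with StringTie 2.1.4. DESeq2 1.30.1, which needs counts, gave the authors' own gene calls, and limma took its place here because counts were not used.

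The 15968 genes that reached 1 TPM in 2 or more libraries were tested on log2(TPM + 1) with limma 3.58.1 in R 4.3.3, with a mean per group, a trend on the mean, 6 residual degrees of freedom and a two-sided Benjamini-Hochberg adjustment over all genes tested. Comparisons were shFto against shScram at each stage, the stage steps within a line and their differences. The test was checked on simulated data. Other steps used Python 3.11.15, pandas 2.3.3, numpy 2.4.6 and matplotlib 3.10.9. Coordinates, overlaps and GC content came from GENCODE M21 (GRCm38), which held 99.4% of the identifiers. Values were identical in 0 pairs of libraries.

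The named genes are the 9 members, Fto, for each member with a group mean of at least 1 TPM the 3 genes (mean TPM of at least 5) with the highest Pearson correlation over the libraries, and from each list up to 2 called genes with the highest and up to 2 with the lowest change between the lines at a stage. A result that this rule names is not reported here. The members, lists and alternatives were chosen with earlier results of these data known, and a fit without shScram Pre was added after seeing the data. Alternatives were the pseudocount, filters on low values, scaling, libraries in the fit, the replicate number, GC content and each library left out.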

Additional observations from a re-analysis of the deposited data

Results flagged for a closer look

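Dnmt1, Uhrf1 and Uhrf2 each took a step between stages that differed between the lines by an interaction test, the only 3 such calls among 18 tests of the 9 genes. Over all 15968 genes tested, 816 were called for the difference of the MCE step and 397 for that of the Diff step. The log2 change from Pre to MCE was larger in shFto than in shScram by 0.88 for Dnmt1 and by 0.88 for Uhrf1. From MCE to Diff it was larger in shFto by 1.06 for Uhrf2. All 3 calls were lost in some of the fits without 1 library. Those of Dnmt1 and Uhrf1 were also lost in a fit on the libraries of the comparison alone (adjusted p = 0.0896 and 0.121 by limma). No group had enough libraries for a test of single libraries that lie apart.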

How the results depend on the processing

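Of 1350 values of single genes under alternatives, 1115 kept their direction and side of the threshold, 149 lost a call, 60 gained one and 26 changed sign, and the cause of these changes was not tested. Among differences of a step between the lines, only those of Dnmt1, Uhrf1 and Uhrf2, and of Hells for the MCE step, were counted. Median-ratio scaling turned Tet3 at MCE to -0.0081 and Hells at Diff to -0.0045 between the lines. GC correction turned Dnmt3b to -0.052, -0.027 and -0.088 at Pre, MCE and Diff, Uhrf2 to 0.16 and Tet3 to -0.36 at Pre, Tet3 to -0.093 at MCE and Hells to -0.0095 at Diff. It also turned Tet1 in shScram to 0.14 from Pre to MCE and to -0.017 from MCE to Diff, and the difference of the MCE step for Uhrf2 to -0.0012. The 9 genes gave 5 calls after GC correction at Pre, against 3, while all genes tested gave 5036 of 15928 against 4510 of 15968. In fits on the libraries of a comparison alone, 0 were called at Pre, 0 of 5 for the shScram MCE step and 0 of 2 for the difference of the MCE step. Those fits called 0, 504 and 239 of all 15968 genes tested. For the shScram MCE step 3 were called with no filter on low values and 3 with median-ratio scaling, beside 5575 of all 33021 and 6033 of all 15968 genes tested.

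Leaving out 1 library gave 1 to 5 calls among the 9 genes between the lines at Pre, 1 to 3 at MCE and 1 to 5 at Diff. It gave 1 to 6 for the shScram MCE step, 3 to 8 for the shScram Diff step, 3 to 8 and 4 to 8 for the shFto steps, and 0 to 6 and 0 to 1 for the differences of the MCE and Diff steps. The group that then holds 1 library is assumed to vary like the others. Signs changed between the lines for Tet3 at Pre (-0.088 to 0.68), and at MCE for Dnmt3b (-0.024 to 0.27), Hells (-0.19 to 0.073), Tet2 (-0.17 to 0.032) and Tet3 (-0.020 to 0.13). They also changed for Hells at Diff (-0.13 to 0.14), in shScram for Tet1 (-0.28 to 0.12) and Tet3 (-0.71 to 0.056) at the MCE step and Tet1 at the Diff step (-0.015 to 0.38), and in shFto for Tet2 at the MCE step (-0.051 to 0.22).

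The replicate numbers did not pair the libraries, since 2 of 15 pairs of groups had a correlation of their replicate differences over 0.1 (range -0.29 to 0.17). With the replicate number as a block, 3 of the 9 genes were called for the shScram MCE step and 0 for the difference of the Diff step. Over all 15968 genes tested the calls fell to 5832 and 257 for these. Between the lines they fell to 3818, 2433 and 3021 at Pre, MCE and Diff. The block ended the calls of Uhrf2 for the difference of the Diff step (adjusted p = 0.0598 by limma), of Dnmt3b and Tet2 for the shScram MCE step (0.0534 and 0.0539) and of Tet1 for the shFto MCE step (0.07), and it changed no other call of the 9 genes.

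Over all genes, the number called between the lines was 4510 at Pre (0 to 9991 over the alternatives), 2838 at MCE (1198 to 6563) and 3391 at Diff (1573 to 7284). For the steps it was 6236 (504 to 10284) and 4023 (1597 to 8301) in shScram, 4585 (2531 to 8145) and 4256 (2002 to 8684) in shFto, and 816 (239 to 8359) and 397 (125 to 2767) for the differences. The highest counts came from fits without shScram Pre libraries or on the libraries of a comparison alone. TPM values keep no depth, so counting error could not be given, and each group's spread rests on 2 libraries.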
